A study of Mus musculus with 17 samples.

Results

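Interferon-stimulated genes were followed across mouse rhabdoid tumors and healthy brain. The 47 genes were taken from a list of names of known responders to type I or type II (gamma) interferon, with no threshold on their values. The list was chosen with earlier results of these data known, so the counts of members below are not independent of these data. All 47 were found among the 50600 gene IDs of each count file, and all 47 passed the filter on low counts that left 21494 genes for testing. The series holds bulk RNA-seq of 17 libraries from the strain C57BL/6J. The 14 tumor libraries came from separate tumors labelled SMARCB1 -/-, that is, without the chromatin remodelling subunit whose loss defines rhabdoid tumors. They comprised 3 tumors of the central nervous system (CNS) labelled SHH subtype, 4 CNS tumors labelled Myc subtype, 4 extracranial tumors and 3 syngeneic grafts of tumor in the flank. The 3 healthy brain libraries were wild type. Age, the means by which Smarcb1 was deleted, the site of the extracranial tumors, how the subtype names were assigned and the tumor behind each graft are not given in the sources used here. Genotype and tissue differ together between every tumor group and brain, so their effects cannot be told apart.

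Interferons are secreted proteins that warn cells of infection, nucleic acid in the wrong place or immune attack. Type I interferons (alpha and beta) bind the receptor pair Ifnar1 and Ifnar2 and act through a complex that holds Stat2 and Irf9 and reads the interferon-stimulated response element (ISRE). Gamma interferon, made mainly by T and NK cells, binds Ifngr1 and Ifngr2 and acts through the gamma-activated site (GAS) and the induced factor Irf1. The Ifit, Oas and Mx families are classic type I targets that block viral RNA and particles. The Gbp and Irgm families are guanosine triphosphatases that attack vacuoles holding pathogens and are classic targets of gamma interferon. Many of these genes answer to both kinds of interferon. In the brain the type I response is known from viral infection and from interferon-driven brain disease, and in tumors from immune infiltration and DNA in the cytosol.

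Promoter sequence is shown for 6 members to make visible the letters that the classes share. Windows of 250 bases before to 50 bases after the gene start were taken from RefSeq (build GRCm38.p6), which held 38 of the 47 members, and the stretch around the match is printed on the strand of the gene, with the matched letters in capitals. The ISRE letters searched were GAAA, any 2 bases and GAAA again, on both strands, and the GAS letters TTCNNNGAA, which read alike on both strands. Ifit1 holds 2 ISRE matches, 104 and 85 bases before its start (chr19:34640760-34640838, plus strand). Isg15 holds 3 that overlap each other, the first 78 bases before its start (chr4:156200850-156200921, minus strand). Gbp2 holds 1 ISRE match (chr3:142620579-142620638, plus strand) and Irf1 1 GAS match in the first of its 2 windows (chr11:53769899-53769957, plus strand). Igtp (chr11:58199486-58199556, plus strand) and Irgm2 (chr11:58214877-58214947, plus strand) each hold a GAS match followed by an ISRE match at the same spacing.
Ifit1: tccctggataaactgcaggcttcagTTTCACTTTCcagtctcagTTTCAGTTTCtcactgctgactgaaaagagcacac
Isg15: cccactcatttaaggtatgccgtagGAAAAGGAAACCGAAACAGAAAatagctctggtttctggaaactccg
Gbp2: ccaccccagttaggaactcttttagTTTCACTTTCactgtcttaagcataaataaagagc
Irf1: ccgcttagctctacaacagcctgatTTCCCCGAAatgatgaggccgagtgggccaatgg
Igtp: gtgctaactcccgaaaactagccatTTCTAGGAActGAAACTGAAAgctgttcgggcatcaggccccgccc
Irgm2: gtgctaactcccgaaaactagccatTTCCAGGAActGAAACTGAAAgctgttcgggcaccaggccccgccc
The ISRE letters were in a window of 18 of the 38 members (47.4%), against 1079 of all 27025 genes of the table (3.99%). The GAS letters were in a window of 10 of the 38 members (26.3%), against 2582 of the 27025 genes (9.55%). Of the type I class (Ifit, Oas and Mx genes), 4 of the 7 with a window held the ISRE letters and 2 of 7 the GAS letters. Of the gamma class (Gbp and Irgm genes and Irf1), 6 of 7 held the ISRE letters and 4 of 7 the GAS letters. An ISRE match overlapped a GAS match in 1 member, Bst2. A match is a description of letters in a window and not a measured binding site.

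Depth and identity of the libraries bear on what follows. Total counts ranged from 18685672 to 114338058 in the tumor libraries and from 103095016 to 130835711 in the brain libraries. Smarcb1 itself was at 2.52 to 33.3 CPM (reads scaled to a common library size) in the 14 tumors and at 119 to 132 CPM in brain (log2 fold change -2.96 ± 0.44 SE for all tumors minus brain, edgeR quasi-likelihood test, adjusted p = 7.37e-05). Summed markers of neurons were at 3426 to 4350 CPM in the healthy brain libraries. Tissue other than the labelled one showed in a few libraries. Healthy brain 1 had summed pituitary markers of 1367 CPM and skeletal muscle markers of 304 CPM, Myc tumor 1 had pituitary markers of 192 CPM, and SHH tumor 1 had oligodendrocyte markers of 9002 CPM. SHH tumor 1 was also the highest of its group for 33 of the 47 members and Healthy brain 1 for 31. Extracranial tumor 4 was the lowest of its group for 45 of 47 members. How often these libraries were highest or lowest of their group over all genes tested was not counted. These counts of members therefore have no background.

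Most of the 47 genes were far higher in Myc tumors, extracranial tumors and grafts than in brain, Adar and Cmpk2 being the exceptions. Together the 47 made up 475, 517 and 719 CPM in the lowest, median and highest SHH tumor, 3998, 4274 and 5577 CPM in the Myc tumors, 1361, 4126 and 6178 CPM in the extracranial tumors, 7468, 8080 and 8149 CPM in the grafts and 381, 386 and 409 CPM in brain. Of the 47, 44 had their highest group mean in the grafts and the other 3 in Myc tumors. For 37 members the group means stood in one order, with brain lowest, then SHH tumors, then Myc and extracranial tumors, and grafts highest. Every Myc, extracranial and graft library was above every SHH and brain library for 35 of 47 members, and for 44 of 47 when Extracranial tumor 4 was left out. The shares of all genes tested with this order of means or this split of libraries were not counted, so these counts have no background. In bulk tissue a larger share of responding cells and more RNA per responding cell cannot be told apart.

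**Figure D1:**
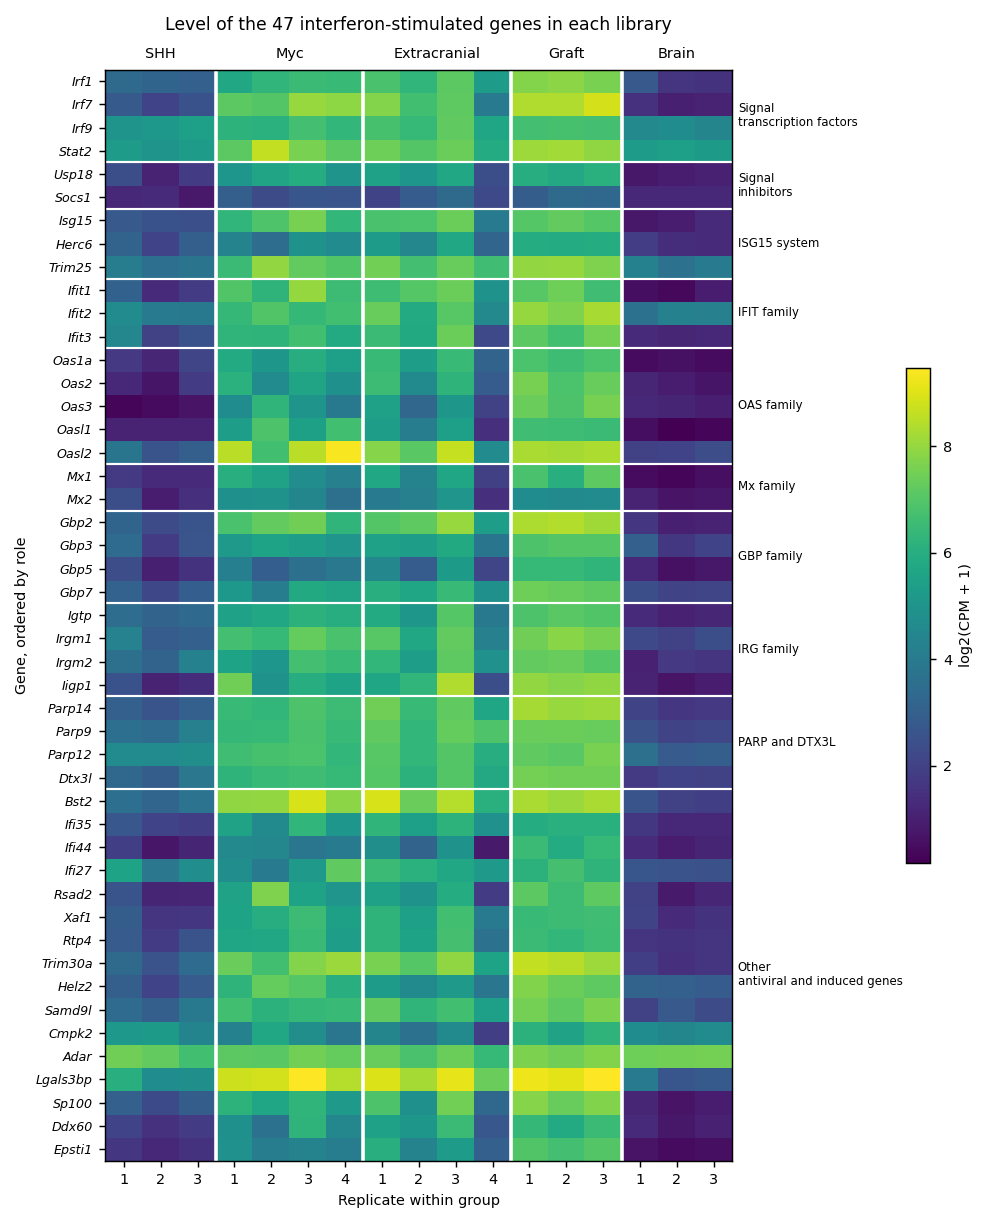
Level of each of the 47 genes, as log2(CPM + 1), in the 17 libraries, with genes in rows by role and libraries in columns by group. Myc, extracranial and graft libraries are bright in nearly all rows, SHH and brain libraries dark, Extracranial tumor 4 is the darkest of its group in 45 rows, and the row of Adar is even.

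The edgeR quasi-likelihood test across all 21494 genes, with Benjamini-Hochberg adjustment and a call at adjusted p under 0.05, counted these differences. All tumors minus brain, as the unweighted mean of the 4 tumor groups, called 45 of 47 members higher and 0 lower, where 23.6% of all genes tested were called higher and 29.8% lower. The median log2 fold change of the members was 4.20, and that of all genes -0.04. Myc tumors minus brain called 45 higher and 0 lower (all genes, 25.3% and 26.8%), with a median of 4.93. Extracranial tumors minus brain likewise called 45 higher and 0 lower (all genes, 26.1% and 26.1%), with a median of 5.04, or 5.21 without Extracranial tumor 4. Grafts minus brain called 45 higher and 0 lower (all genes, 24.9% and 30.4%), with a median of 6.09. SHH tumors stood closer to brain: SHH tumors minus brain called 10 higher and 0 lower (all genes, 2.44% and 1.94%), with a median of 1.47. Against SHH tumors, 44 of 47 members were higher and 0 lower in Myc tumors (all genes, 19% and 21.9%; median 3.54), in extracranial tumors (all genes, 18.6% and 19.7%; median 3.41) and in grafts (all genes, 20.4% and 25.8%; median 4.68). The comparisons with brain share the brain libraries and those with SHH tumors share the SHH libraries. The same 2 members, Adar and Cmpk2, were not called in the 3 comparisons of Myc, extracranial and graft groups with brain, and Ifi27 joined them against SHH tumors.

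The ligands were hardly detected. Of 10 interferon genes listed, only Ifng, which encodes gamma interferon, passed the low-count filter, with 145 reads over the 17 libraries. Ifng was at 0.281, 0.848 and 0.741 CPM in the grafts, 0.0547, 0, 0.0524 and 0.0448 CPM in Myc tumors and 0.0318, 0.0194 and 0.0159 CPM in brain, and no read of it was counted in the SHH or extracranial tumors. The brain libraries held 8 reads in all, and extracranial tumors were called lower than brain (adjusted p = 0.0454 by edgeR). No read in the extracranial group allows up to 0.0214 CPM, close to the brain mean of 0.0224 CPM, so this call is uncertain. Ifng was higher in grafts than in brain by 4.69 ± 0.72 on the log2 scale (adjusted p = 5.03e-04) and than in Myc tumors by 3.83 ± 0.66 (adjusted p = 0.0181 by edgeR). Against a floor of 3 counts over a whole group, the mean of the grafts was at least 29.8-fold higher than in SHH tumors and at least 29.2-fold higher than in extracranial tumors, which covers counting error only. Ifnb1, the beta interferon gene, had 40 reads in all, of which 18 were in Extracranial tumor 2 (0.35 CPM) and 0 in the SHH tumors. Ifne had 50 reads, 37 of them in Myc tumors. Ifna4 had 8, Ifna2 had 3 and Ifnk had 2 reads. Ifna1, Ifna5, Ifnl2 and Ifnl3 had no read, which allows up to 0.0209 CPM in the SHH group, 0.0134 CPM in the Myc group, 0.0214 CPM in the extracranial group, 0.0158 CPM in the grafts and 0.00831 CPM in brain. The alpha interferon genes are near copies of each other, and how reads that match several genes were counted is not given in the sources used here.

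The 6 receptor genes were detected in every group. Ifnar2, a subunit of the type I receptor, had 13.3, 13.2 and 16.3 CPM in SHH tumors, 46.03, 31.4, 36.7 and 29.03 in Myc tumors, 57.8, 47.9, 38.8 and 38.2 in extracranial tumors, 59.7, 59.5 and 67.5 in grafts and 13.3, 13.1 and 11.6 in brain. Myc, extracranial and graft libraries were all above every SHH and brain library. The difference from brain was 1.5 ± 0.21 in Myc tumors, 1.85 ± 0.21 in extracranial tumors and 2.30 ± 0.22 in grafts on the log2 scale (adjusted p = 6.79e-05, 1.45e-05 and 4.56e-06 by edgeR). Ifnar1, its partner, rose by 0.80 ± 0.18 in extracranial tumors and by 0.81 ± 0.19 in grafts (adjusted p = 0.00227 and 0.00274) and was not called in Myc tumors (0.42 ± 0.18, adjusted p = 0.063). Ifngr1, the ligand-binding chain of the gamma receptor, rose by 2.55 ± 0.31, 2.86 ± 0.31 and 3.03 ± 0.32 in Myc tumors, extracranial tumors and grafts. Ifngr2, the other gamma chain, was called in no comparison with brain. Il10rb, shared by the lambda interferon and interleukin 10 receptors, rose by 2.69 ± 0.42, 3.46 ± 0.44 and 3.86 ± 0.46 in the same groups. Ifnlr1, the specific chain of the lambda receptor, was highest in SHH tumors: it had 4.02, 8.53 and 31.8 CPM in SHH tumors, 9.24, 5.95, 4.79 and 2.56 in Myc tumors, 1.02, 4.11, 2.595 and 6.53 in extracranial tumors, 0.478, 0.737 and 0.292 in grafts and 1.21, 1.11 and 0.636 in brain. It was higher in SHH tumors than in brain by 3.91 ± 0.85 (adjusted p = 0.022), was also called in Myc tumors (2.51 ± 0.77, adjusted p = 0.0143) and extracranial tumors (1.86 ± 0.75, adjusted p = 0.0498), and was lower in grafts than in SHH tumors (-4.88 ± 0.89, adjusted p = 6.89e-04), with the 3 SHH libraries spread widely. Of the 6 receptors, the count called higher against brain was 1 for SHH tumors, 4 for Myc tumors, 5 for extracranial tumors and 4 for grafts, and 0 were called lower.

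Among signal genes outside the 47, Irf3, Irf5, Irf8 and Ptpn6 were called higher than brain in all 4 tumor groups. Irf8, a factor of myeloid cells, had 11.98, 8.697 and 10.8 CPM in SHH tumors, 54.5, 38.7, 32.1 and 27.1 in Myc tumors, 113, 39.1, 38.8 and 10.8 in extracranial tumors, 150.1, 147 and 138 in grafts and 2.34, 2.35 and 2.47 in brain. Its difference from brain was 2.14 ± 0.56 in SHH tumors (adjusted p = 0.0462), 3.99 ± 0.59 in Myc tumors (adjusted p = 1.12e-04), 4.40 ± 0.61 in extracranial tumors (adjusted p = 6.02e-05) and 5.92 ± 0.66 in grafts (adjusted p = 1.18e-05). Irf5 and the phosphatase Ptpn6 are also known from myeloid and other blood cells, and Irf3 is the sensor-activated factor that starts interferon beta transcription. Irf3 differed from brain by 1.30 ± 0.35 in SHH tumors, 1.39 ± 0.33 in Myc tumors, 1.91 ± 0.34 in extracranial tumors and 1.80 ± 0.35 in grafts. Jak2, a kinase of the gamma receptor, was called in no comparison with brain and was lower in grafts than in SHH tumors (-1.30 ± 0.40, adjusted p = 0.0173).

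Among the members, the signal factors came first in the pathway. Irf7, the factor that amplifies type I interferon, had 5.98, 3.15 and 4.82 CPM in SHH tumors, 140.1, 126, 260.3 and 238 in Myc tumors, 216, 101, 142 and 15.4 in extracranial tumors, 330.2, 332 and 474 in grafts and 1.87, 0.9802 and 1.17 in brain. Every Myc, extracranial and graft library was above every SHH library, and Extracranial tumor 4 was the nearest. Irf7 was higher than in brain by 7.15 ± 0.79 in Myc tumors (adjusted p = 1.35e-05), by 6.47 ± 0.77 in extracranial tumors (adjusted p = 1.97e-05) and by 8.14 ± 0.84 in grafts (adjusted p = 6.44e-06), the largest change of the 4 signal factors in each group. Irf1, the factor of the gamma response, had 9.61, 8.06 and 7.22 CPM in SHH tumors, 51.8, 78.2, 89.5 and 87.5 in Myc tumors, 111, 78.5, 139 and 38.3 in extracranial tumors, 213, 231 and 196 in grafts and 5.92, 2.07 and 1.92 in brain. The grafts were above all other libraries, and SHH tumors were above brain without a call (1.33 ± 0.45, adjusted p = 0.107). Stat2, a signal factor of the type I pathway, had 38.95, 30.7 and 37.5 CPM in SHH tumors, 139.9, 397, 195 and 139 in Myc tumors, 169, 127, 167 and 58.9 in extracranial tumors, 276, 287 and 243 in grafts and 37.6, 42.4 and 36.7 in brain. Myc tumor 2 had the most Stat2, and SHH tumors did not separate from brain (-0.12 ± 0.40, adjusted p = 0.886). Irf9, the DNA-binding part of the same complex, had 30.8, 33.97 and 42.1 CPM in SHH tumors, 71.7, 69.1, 104 and 79.2 in Myc tumors, 109, 83.04, 148 and 50.8 in extracranial tumors, 102, 108 and 103 in grafts and 22.7, 25 and 20.2 in brain. Irf9 changed by 1.84 ± 0.29, 2.11 ± 0.29 and 2.20 ± 0.31 against brain in Myc tumors, extracranial tumors and grafts. The inhibitors moved with the targets. Usp18, which removes ISG15 from proteins and blocks the type I receptor, had 4.35, 1.18 and 2.58 CPM in SHH tumors, 32.5, 47.8, 60.9 and 30.8 in Myc tumors, 44.6, 32.6, 51.2 and 4.28 in extracranial tumors, 61.4, 53.8 and 66.8 in grafts and 0.739, 0.835 and 1.06 in brain. Its rise against brain was 5.61 ± 0.75 in Myc tumors, 5.24 ± 0.74 in extracranial tumors and 6.11 ± 0.78 in grafts. Socs1, the inhibitor of Janus kinases, stayed at or below 9.52 CPM in all libraries and rose by 2.0 ± 0.43, 2.09 ± 0.44 and 2.62 ± 0.46 in the same groups.

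The ISG15 system attaches a ubiquitin-like protein to others. Isg15, that protein, had 5.92, 4.75 and 4.47 CPM in SHH tumors, 78.7, 121, 189.7 and 79.5 in Myc tumors, 112, 114, 166 and 15.02 in extracranial tumors, 128, 152 and 128 in grafts and 0.707, 0.835 and 1.48 in brain. The SHH tumors lay between brain and the other tumors with no overlap on either side. Isg15 was higher than in brain by 2.32 ± 0.61 in SHH tumors (adjusted p = 0.0471), by 6.86 ± 0.74 in Myc tumors (adjusted p = 1.11e-05), by 6.66 ± 0.73 in extracranial tumors (adjusted p = 1.16e-05) and by 7.08 ± 0.76 in grafts (adjusted p = 8.21e-06). Trim25, a ubiquitin ligase that also carries ISG15 and supports RNA sensing by RIG-I, had 15.8, 10.8 and 12.7 CPM in SHH tumors, 90.2, 247, 149.8 and 123 in Myc tumors, 181, 102, 157 and 98.3 in extracranial tumors, 253, 256 and 206 in grafts and 18.4, 11.8 and 14.97 in brain. SHH tumors and brain overlapped for Trim25 (-0.20 ± 0.33, adjusted p = 0.768). Herc6, the ligase that attaches ISG15 in the mouse, was also higher than in brain in Myc tumors, extracranial tumors and grafts, by 3.45 ± 0.59, 3.96 ± 0.60 and 4.96 ± 0.65.

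The IFIT proteins bind viral RNA. Ifit1 (chr19:34640871-34650009, GRCm38, plus strand) had 7.32, 1.504 and 2.59 CPM in SHH tumors, 122, 74.5, 257 and 94 in Myc tumors, 95.5, 129, 165 and 29.3 in extracranial tumors, 132, 173 and 97.2 in grafts and 0.461, 0.3203 and 0.851 in brain. Myc tumor 3 held the most, and Myc tumors and grafts overlapped (-0.033 ± 0.61, adjusted p = 0.988). Ifit1 gave one of the largest changes against brain, at 7.97 ± 0.88 in Myc tumors (adjusted p = 1.26e-05), 7.58 ± 0.86 in extracranial tumors (adjusted p = 1.43e-05) and 7.93 ± 0.88 in grafts (adjusted p = 1.13e-05). Ifit3 had 21.5, 2.92 and 4.77 CPM in SHH tumors, 75.9, 73.4, 102 and 57.6 in Myc tumors, 91.2, 56.3, 167 and 3.67 in extracranial tumors, 138, 99.98 and 186 in grafts and 1.53, 1.29 and 1.304 in brain. Extracranial tumor 4 lay among the SHH tumors for Ifit3, and SHH tumor 1 was far above the other SHH tumors. Ifit2 had 24.1, 15.5 and 14.2 CPM in SHH tumors, 81.02, 121, 82.3 and 101 in Myc tumors, 159, 57.6, 134 and 22.6 in extracranial tumors, 254, 203 and 307 in grafts and 11.7, 18.1 and 17.7 in brain. SHH tumors and brain overlapped for Ifit2 (0.18 ± 0.50, adjusted p = 0.865). Per kilobase of exon, the mean in brain was 4.03 CPM for Ifit2, 0.787 for Ifit3 and 0.205 for Ifit1. Ifit1 and Ifit3 have near copies beside them on chromosome 19, so reads may have been split or lost.

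The OAS proteins sense double-stranded RNA and activate an RNase. Oas1a had 2.32, 1.25 and 3.396 CPM in SHH tumors, 56.9, 33.4, 62.4 and 42.6 in Myc tumors, 85.6, 39.5, 86.9 and 7.85 in extracranial tumors, 115, 95.9 and 114 in grafts and 0.389, 0.524 and 0.374 in brain. It was higher than in brain in all 4 tumor groups, by 2.44 ± 0.64 (adjusted p = 0.0464) in SHH tumors and 7.97 ± 0.81 (adjusted p = 5.98e-06) in grafts. Oas2 had 1.39, 0.635 and 2.55 CPM in SHH tumors, 68.9, 24.4, 48.1 and 27.6 in Myc tumors, 93.4, 22.9, 73.8 and 6.42 in extracranial tumors, 190, 115 and 159 in grafts and 1.28, 0.864 and 0.636 in brain. SHH tumors overlapped brain and grafts lay above all others. Oas3 had 0.232, 0.376 and 0.589 CPM in SHH tumors, 24.8, 76.7, 30.5 and 14.5 in Myc tumors, 44.2, 8.41, 32.9 and 2.96 in extracranial tumors, 162, 116 and 190.3 in grafts and 1.398, 1.23 and 0.954 in brain. Here the 3 SHH tumors lay below the 3 brain libraries, without a call (-1.55 ± 0.81, adjusted p = 0.28), while grafts rose by 7.03 ± 0.99 against brain (adjusted p = 6.48e-05). Oasl1, an Oas-like protein without enzyme activity that holds back Irf7 translation in mice, had 1.11, 1.11 and 1.17 CPM in SHH tumors, 41.4, 117, 43.1 and 101 in Myc tumors, 40.9, 16.2, 41.97 and 1.77 in extracranial tumors, 96.7, 96.4 and 90.9 in grafts and 0.461, 0.136 and 0.247 in brain. Myc tumors 2 and 4 were above the grafts, and the change against brain was the largest of the 47 members in Myc tumors (8.06 ± 1.02, adjusted p = 3.45e-05) and in grafts (8.38 ± 1.04, adjusted p = 2.55e-05). Oasl2 had 12.7, 5.03 and 6.92 CPM in SHH tumors, 365, 99.6, 367 and 659.9 in Myc tumors, 220, 138, 404 and 24.5 in extracranial tumors, 317, 295 and 324 in grafts and 3.04, 3.13 and 4.23 in brain. The Myc group held both the highest Oasl2 library, Myc tumor 4, and a low one, Myc tumor 2. Oas1a sits in a cluster of near copies on chromosome 5, so its counts are uncertain.

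The Mx proteins are antiviral guanosine triphosphatases, and the Mx1 allele of most inbred laboratory mice makes no working protein, so its transcript serves here as a readout. Mx1 had 2.42, 1.43 and 1.49 CPM in SHH tumors, 63.03, 45.2, 25.5 and 17.6 in Myc tumors, 51.4, 19.3, 50.3 and 2.86 in extracranial tumors, 112, 63.5 and 144 in grafts and 0.389, 0.233 and 0.493 in brain. It rose against brain by 6.66 ± 0.93 in Myc tumors, 6.37 ± 0.92 in extracranial tumors and 8.15 ± 1.01 in grafts. Mx2, annotated in this reference as a polymorphic pseudogene, had 4.33, 0.8697 and 1.71 CPM in SHH tumors, 27.6, 29.04, 20.6 and 11.2 in Myc tumors, 15.4, 17.9, 31.5 and 1.801 in extracranial tumors, 24.8, 23.8 and 24.7 in grafts and 1.18, 0.592 and 0.7397 in brain. Myc tumors, extracranial tumors and grafts overlapped for Mx2, with grafts minus Myc tumors at 0.14 ± 0.68 (adjusted p = 0.927).

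For all 4 genes of the GBP family every graft was above every other library. In all, 20 of the 47 members had this pattern, and the share of all genes tested with it was not counted. Gbp2 (chr3:142620602-142638008, plus strand) had 7.96, 3.93 and 5.004 CPM in SHH tumors, 112, 149, 177 and 75.3 in Myc tumors, 127, 142, 262 and 40.96 in extracranial tumors, 322, 338 and 281 in grafts and 2.14, 1.02 and 1.13 in brain. The rise of Gbp2 against brain was 6.48 ± 0.64 in Myc tumors (adjusted p = 6.67e-06), 6.64 ± 0.64 in extracranial tumors (adjusted p = 4.98e-06) and 7.77 ± 0.68 in grafts (adjusted p = 2.42e-06). Gbp3 had 9.92, 2.45 and 5.13 CPM in SHH tumors, 36.1, 46.7, 39.6 and 31.7 in Myc tumors, 44.4, 40.01, 55.5 and 12.9 in extracranial tumors, 116, 127 and 125 in grafts and 7.11, 2.19 and 3.18 in brain. Brain and SHH tumors overlapped for Gbp3. Gbp5, which also promotes inflammasome assembly, had 4.25, 0.987 and 1.902 CPM in SHH tumors, 17.3, 6.83, 11.3 and 13.8 in Myc tumors, 21.1, 6.36, 37.3 and 3.37 in extracranial tumors, 84.6, 84.9 and 76.4 in grafts and 1.31, 0.524 and 0.724 in brain. Extracranial tumor 3 was the nearest to the grafts. Gbp7 had 7.65, 3.62 and 6.702 CPM in SHH tumors, 34.5, 16.3, 56.4 and 48.2 in Myc tumors, 62.8, 50.7, 87.6 and 27.8 in extracranial tumors, 169, 158 and 144 in grafts and 4.34, 3.24 and 3.41 in brain. SHH tumors and brain overlapped for Gbp7. The Gbp genes lie side by side on chromosome 3 and share sequence, so reads may have been split between them.

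The immunity-related guanosine triphosphatases of the IRG family guard against parasites in vacuoles. Irgm1 had 18.98, 6.39 and 7.26 CPM in SHH tumors, 102, 83.95, 154 and 111 in Myc tumors, 133, 52.4, 151 and 17.8 in extracranial tumors, 177, 226 and 188 in grafts and 3.68, 3.05 and 4.35 in brain. Irgm2 had 11.3, 7.92 and 18.1 CPM in SHH tumors, 46.5, 32.6, 102 and 88.2 in Myc tumors, 80.1, 40.9, 142 and 28.4 in extracranial tumors, 152, 159.9 and 130.7 in grafts and 1.06, 2.34 and 2.08 in brain. SHH tumors were above brain for both, with a call for Irgm2 (2.77 ± 0.59, adjusted p = 0.0212) and none for Irgm1 (1.56 ± 0.60, adjusted p = 0.148). Igtp (Irgm3) rose in all 4 groups, by 2.85 ± 0.56 in SHH tumors (adjusted p = 0.0157), the largest change of any member there, and by 6.63 ± 0.67 in grafts (adjusted p = 5.51e-06). The annotated intervals of Igtp (chr11:58199556-58207591) and Irgm2 (chr11:58199618-58222782) overlap on the same strand, so their reads may not be separate. Iigp1 had 4.77, 1.15 and 1.64 CPM in SHH tumors, 176, 29.8, 61.8 and 46.8 in Myc tumors, 49.8, 76.99, 331 and 4.32 in extracranial tumors, 251, 219.7 and 242 in grafts and 1.14, 0.582 and 0.843 in brain. Extracranial tumor 3 was above the grafts and Extracranial tumor 4 among the SHH tumors, and Iigp1 rose by 6.51 ± 1.25 in Myc tumors and 8.11 ± 1.36 in grafts.

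Parp14, Parp9 and Dtx3l lie side by side on chromosome 16, and the ADP-ribosylation factors Parp9 and Dtx3l work as a pair. Parp14 had 7.21, 5.01 and 7.09 CPM in SHH tumors, 87.6, 79.2, 117 and 92.4 in Myc tumors, 174, 85.3, 145 and 50.7 in extracranial tumors, 300.1, 259 and 275 in grafts and 3.26, 2.18 and 2.32 in brain. It rose against brain by 5.18 ± 0.41, 5.46 ± 0.41 and 6.75 ± 0.45 in Myc tumors, extracranial tumors and grafts. Parp9 was less low in Extracranial tumor 4 than other members, at 118 CPM there against 147, 79.2 and 155 CPM in the other 3 extracranial tumors. Parp9, Dtx3l and Parp12, an ADP-ribosyltransferase that restricts alphaviruses, were 3 of the 10 members called in SHH tumors against brain, by 1.75 ± 0.27 (adjusted p = 0.00623), 1.77 ± 0.32 (adjusted p = 0.0119) and 1.61 ± 0.30 (adjusted p = 0.0127). The 5′ ends of Parp9 (chr16:35938470-35972605, plus strand) and Dtx3l (chr16:35926511-35939151, minus strand) overlap, and the strand setting of the counting is not given in the sources used here.

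The other 16 members have roles from viral budding to nucleotide metabolism. Lgals3bp, a secreted glycoprotein that binds galectins, was the member with the highest mean CPM over the 17 libraries and had 63.6, 25.2 and 27.2 CPM in SHH tumors, 433, 455, 711 and 348 in Myc tumors, 502, 295, 565 and 161 in extracranial tumors, 602, 545 and 707 in grafts and 15.7, 5.39 and 6.08 in brain. It was called in all 4 tumor groups, by 2.09 ± 0.53 in SHH tumors (adjusted p = 0.0404) and 6.09 ± 0.63 in grafts (adjusted p = 6.67e-06). Bst2 (tetherin, which holds budding virus at the membrane) had the highest level per kilobase of exon of the 47 in Myc tumors (332 CPM), extracranial tumors (293 CPM) and grafts (332 CPM). Of the 16, the same 14 were called higher against brain in the Myc, extracranial and graft groups, and 2 in SHH tumors (Lgals3bp and Trim30a). Rsad2 (viperin, which makes a chain-terminating nucleotide) and Cmpk2, the kinase encoded beside it on chromosome 12, differed from each other. Rsad2 had 5.05, 1.199 and 1.29 CPM in SHH tumors, 45.1, 205, 46.4 and 31.4 in Myc tumors, 43.9, 29.8, 59.9 and 2.55 in extracranial tumors, 141, 93.3 and 145 in grafts and 2.898, 0.806 and 1.25 in brain. Cmpk2 had 34.1, 37 and 19.7 CPM in SHH tumors, 18.4, 52.3, 26.3 and 13.3 in Myc tumors, 20.2, 11.8, 24.1 and 2.75 in extracranial tumors, 70.7, 45.2 and 73.6 in grafts and 24.8, 21.1 and 24.6 in brain. Cmpk2 was high in brain already, and neither Myc tumors (0.23 ± 0.57, adjusted p = 0.75) nor grafts (1.43 ± 0.62, adjusted p = 0.0622) were called against it. Adar, the RNA editing enzyme that has a constitutive and an interferon-induced transcript, had 174, 151 and 99.7 CPM in SHH tumors, 139, 137, 179 and 153 in Myc tumors, 157, 112, 168 and 83.6 in extracranial tumors, 196, 177 and 207 in grafts and 172, 182 and 184 in brain. These gene counts do not separate the 2 transcripts, and Adar differed from brain by -0.24 ± 0.23 in Myc tumors, -0.46 ± 0.23 in extracranial tumors and 0.11 ± 0.25 in grafts with no call. In SHH tumors and brain Adar, not Lgals3bp, was the member with the most CPM. Helz2, a nuclear receptor coactivator, rose against brain by 3.88 ± 0.45 in Myc tumors, 1.95 ± 0.41 in extracranial tumors and 4.60 ± 0.47 in grafts. Ifi35, Ifi44, Xaf1, Rtp4, Samd9l, Sp100 and Ddx60 all rose against brain in the same groups, with log2 fold changes of 3.91 to 5.98 for Myc tumors, 3.76 to 6.48 for extracranial tumors and 5.31 to 7.72 for grafts, and none of them was called in SHH tumors. Sp100 is a protein of nuclear bodies and Ddx60 a helicase. Ifi27 was called against brain in Myc, extracranial and graft groups and was spread from 14.8 to 148 CPM within the Myc tumors.

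The type I class (10 genes) and the gamma class (7 genes) were then set side by side. All 10 type I and all 7 gamma genes were called higher in Myc tumors, in extracranial tumors and in grafts against brain. The median log2 fold change of the type I class against that of the gamma class was 6.23 against 4.54 in Myc tumors, 5.84 against 4.58 in extracranial tumors, 7.20 against 6.01 in grafts and 1.72 against 1.47 in SHH tumors. In SHH tumors 2 of 10 type I genes (Ifit1 and Oas1a) and 1 of 7 gamma genes (Irgm2) were called. Igtp (Irgm3), also called there, was not among these 7 genes. In wider classes that were also tried, 3 of 19 type I genes and 2 of 10 gamma genes were called. The classes of 10 and 7 genes overlapped in every comparison with brain: Ifit2 and Mx2 changed less than Gbp2 in each of the 3 high groups. These 4 comparisons share the brain libraries.

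**Figure D2:**
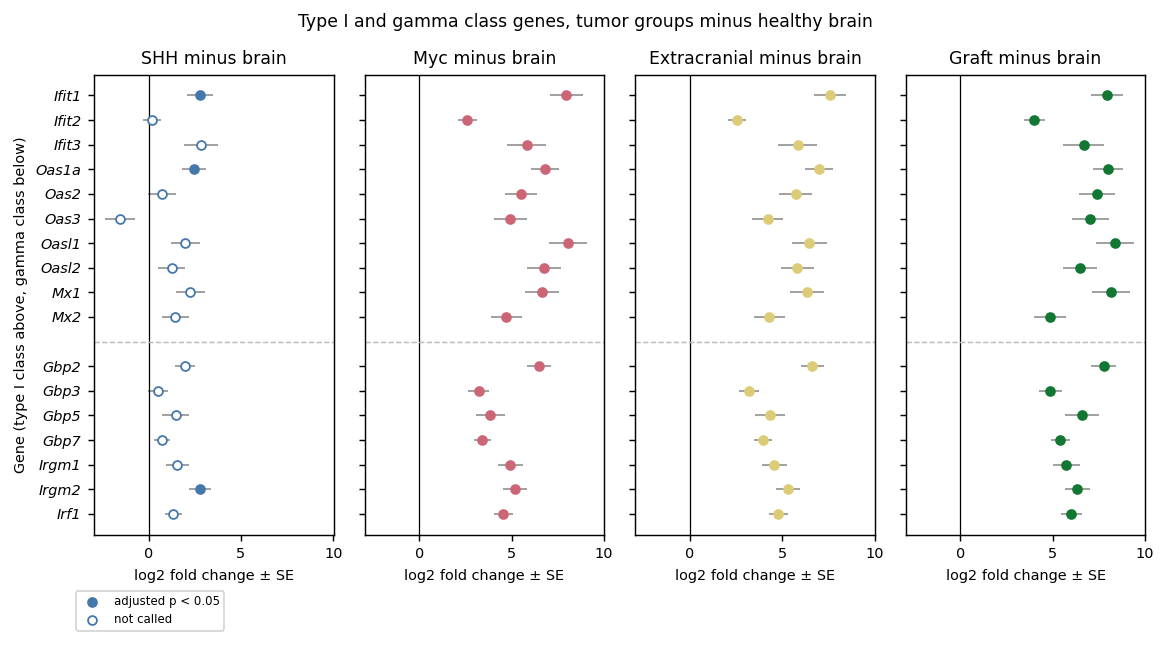
Log2 fold change against healthy brain, with its SE, of the 10 type I and 7 gamma class genes in the 4 tumor groups, filled where the adjusted p was under 0.05. All 17 points are filled and between 2.56 and 8.38 in Myc tumors, extracranial tumors and grafts, and 3 are filled in SHH tumors, where Oas3 lies at -1.55.

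A class level per library was formed as the mean over the class of log2(CPM + 1), each gene centred on the mean of its 5 group means. It is a description with no test. By this centring the 5 group means of a class, and of the difference between classes, balance each other. A sign is therefore relative to the mean of the groups, and positive values in some groups require negative values in others. The type I level was -1.81, -2.71 and -2.29 in SHH tumors, 1.83, 1.68, 1.81 and 1.46 in Myc tumors, 1.92, 0.90, 2.17 and -1.34 in extracranial tumors, 2.77, 2.49 and 2.83 in grafts and -3.00, -3.09 and -3.01 in brain. The gamma level was -1.32, -2.32 and -1.82 in SHH tumors, 0.95, 0.71, 1.43 and 1.12 in Myc tumors, 1.49, 0.83, 2.06 and -0.31 in extracranial tumors, 2.68, 2.77 and 2.58 in grafts and -2.63, -3.14 and -3.01 in brain. For both classes the grafts were above all other libraries and the SHH tumors above brain, and Extracranial tumor 4 lay between the SHH tumors and the other extracranial tumors for both. The difference, type I minus gamma, averaged -0.45 ± 0.05 in the 3 SHH tumors (mean ± SD over libraries), 0.65 ± 0.33 in the 4 Myc tumors, -0.10 ± 0.64 in the 4 extracranial tumors, 0.018 ± 0.27 in the 3 grafts and -0.11 ± 0.23 in the 3 brain libraries. All 4 Myc tumors were positive, at 0.34 to 0.97, and all 3 SHH tumors negative, at -0.49 to -0.39. By class level, SHH tumors stood closer to brain in type I genes than in gamma genes. Group means were -2.27 in SHH tumors and -3.04 in brain for type I, and -1.82 and -2.92 for gamma. The median log2 fold change of SHH tumors minus brain had the other order. It was 1.72 in the type I class and 1.47 in the gamma class. Which class changed more from brain therefore depended on the measure. Extracranial tumor 4 had the most negative difference at -1.02, and without it the extracranial mean was 0.21. The sign of the small means in grafts and brain also hung on 1 library: without graft 1 the graft mean was -0.019 and without graft 3 it was -0.10, and without Healthy brain 1 the brain mean was 0.022. The differences also depended on the settings. For SHH tumors the mean was -0.58 with 0.25 CPM and -0.24 with 4 CPM added in place of 1, and -0.18 with wider classes of 19 type I and 10 gamma genes. For Myc tumors it was 0.38 with the wider classes. With 4 CPM added the graft mean was -0.13 and the brain mean 0.059, and with the wider classes they were -0.047 and 0.020, each of the opposite sign to the value above.

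**Figure D3:**
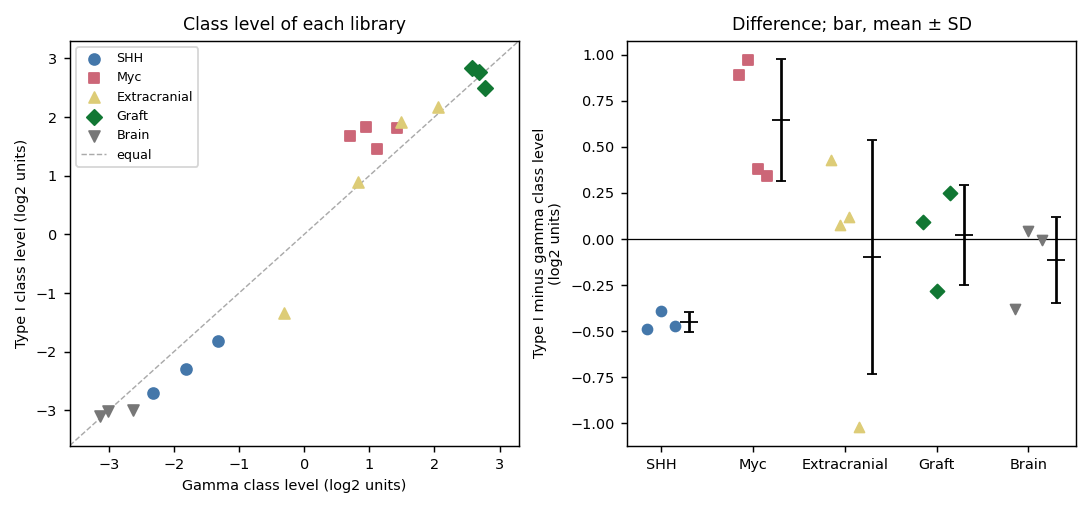
Left, the type I class level of each library against its gamma class level, in log2 units, with the line of equal levels. Right, their difference in each library with the mean and SD of each group: the 4 Myc tumors lie at 0.34 to 0.97, the 3 SHH tumors at -0.49 to -0.39 and Extracranial tumor 4 at -1.02.

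SHH tumors minus brain had the fewest calls of the comparisons with brain. The 10 members called were Igtp, Ifit1, Irgm2, Oas1a, Isg15, Lgals3bp, Trim30a, Dtx3l, Parp9 and Parp12, with log2 fold changes of 1.61 to 2.85, and Gbp2 just missed the call (1.97 ± 0.53, adjusted p = 0.0502). The 3 SHH libraries lay above the 3 brain libraries for 31 of the 47 members, as they did for 15.7% of all genes tested, and below them for 1, Oas3. The log2 fold change was positive for 41 of 47. DESeq2 called 22 members higher (6.78% of all genes) and limma voom with quality weights 15 (15.1% of all genes). The count rested on single libraries: it was 5 without SHH tumor 1, 1 without SHH tumor 3, 6 without Healthy brain 1, 1 without Healthy brain 2, 0 without Healthy brain 3, 5 without any 1 of the 3 grafts, which share the estimate of the spread, and 22 without Extracranial tumor 4. Without both Healthy brain 1 and SHH tumor 1 it was 3 (Lgals3bp, Parp12 and Parp9). The summed markers of macrophages and monocytes were 230, 250 and 425 CPM in the lowest, median and highest SHH tumor, against 68.5, 72.7 and 100 CPM in brain. Those of microglia (8 genes, 2 called higher) were 351, 360 and 409 CPM in SHH tumors, against 94.1, 98.4 and 126 CPM in brain. The part of either list in the result was not tested.

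Myc and extracranial tumors did not separate by the test. Extracranial minus Myc tumors called 0 of 47 members higher and 0 lower (all genes, 0% higher and 0.0186% lower), with a median log2 fold change of -0.00079. At an unadjusted p under 0.05 the edgeR test held 3 members, DESeq2 called 1 member lower, Helz2, and limma voom called 0. Helz2 was at 39.02, 23.3, 34.8 and 13.3 CPM in extracranial tumors and 73.3, 155, 129 and 65.4 CPM in Myc tumors, with no overlap (-1.94 ± 0.37, adjusted p = 0.0771 by edgeR), and the edgeR test called it without Myc tumor 1. The median turned sign with single libraries, at 0.24 without Extracranial tumor 4, 0.05 without Extracranial tumor 2 and 0.11 without Myc tumor 3, and at -0.37 without Extracranial tumor 3. Extracranial tumor 4 held a median of 19.8% of the other 3 extracranial tumors' median over the 47 members, 9.08% over the type I class (4.03% to 22.7%) and 28.9% over the gamma class (13.3% to 44.2%). It was below all 10 other Myc, extracranial and graft libraries for 41 of 47 members, and at or below the highest SHH tumor for 12. The shares of all genes tested with these patterns were not counted. The summed macrophage markers of Extracranial tumor 4, at 2752 CPM, were the second highest of the 4 extracranial tumors (7160, 2728 and 2082 CPM in the other 3). Its summed T and NK cell markers, at 20.1 CPM, were within the range of the other 3 (10.7 to 56.9 CPM). Markers of neutrophils, of B and plasma cells and of endothelium were lowest there. Neutrophil markers summed to 3.43 CPM, against 57.7 to 69.1 CPM in the other 3. B and plasma cell markers summed to 1.73 CPM, against 5.1 to 15.6 CPM, and endothelium markers to 104 CPM, against 120 to 377 CPM. Microglia markers were highest there, at 1468 CPM against 648 to 1150 CPM. Dendritic cell markers, at 39.1 CPM, were within the range of the others (24.2 to 191 CPM). Irf8 was at 10.8 CPM, against 38.8 to 113 CPM. The part of these in its low member levels was not tested.

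Few members were called between grafts and the Myc or extracranial tumors. Grafts minus Myc tumors called 5 of 47 members higher and 0 lower (all genes, 3.12% and 2.88%), with a median log2 fold change of 0.88 where all genes had -0.11. The 5 were Gbp5 (2.74 ± 0.69, adjusted p = 0.0356), Gbp7 (2.01 ± 0.41, adjusted p = 0.018), Parp14 (1.56 ± 0.32, adjusted p = 0.0196), Dtx3l (1.08 ± 0.29, adjusted p = 0.0437) and Epsti1 (2.54 ± 0.51, adjusted p = 0.017). Epsti1, an epithelial and stromal interferon target, had 122, 104 and 126 CPM in grafts against 28.3, 16.3, 19.5 and 16.2 CPM in Myc tumors. Grafts lay above all Myc tumors for 25 of the 47 members, as for 14.1% of all genes tested. By class, the 3 grafts were above the 4 Myc tumors for 5 of 10 type I genes with 0 called and a median of 1.01, and for 7 of 7 gamma genes with 2 called and a median of 1.47. The difference between these class medians was not tested. The count of 5 was 0 without any 1 of the 3 grafts, 3 without Myc tumor 3, Myc tumor 4 or Healthy brain 3, and 15 without Extracranial tumor 4. DESeq2 called 13 members and limma voom 26. The shares of all genes called by these tools, or without single libraries, are not given for this comparison. For SHH tumors minus brain, DESeq2 called 6.78% and limma voom 15.1% of all genes higher, against 2.44% by edgeR.

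Grafts minus extracranial tumors called 5 of 47 higher and 0 lower (all genes, 2.16% and 2.62%), with a median of 1.02, or 0.72 without Extracranial tumor 4. The 5 were Oas3 (2.82 ± 0.73, adjusted p = 0.0435), Parp14 (1.29 ± 0.32, adjusted p = 0.041), Helz2 (2.66 ± 0.39, adjusted p = 0.00656), Cmpk2 (2.10 ± 0.57, adjusted p = 0.0497) and Epsti1 (1.86 ± 0.50, adjusted p = 0.0478). Helz2 was at 211, 168 and 144 CPM in grafts, against 39.02, 23.3, 34.8 and 13.3 CPM in extracranial tumors, and was the only one called under every setting tried. Grafts lay above all extracranial tumors for 28 members, as for 11.9% of all genes tested. Of the type I class 1 gene (Oas3) was called and of the gamma class 0, with medians of 1.21 and 1.22. The count was 1 without SHH tumor 2, Extracranial tumor 2, any 1 of the 3 grafts, Healthy brain 2 or Healthy brain 3, 2 without SHH tumor 3 or Healthy brain 1, 3 without SHH tumor 1 and 9 without Extracranial tumor 1. DESeq2 called 14 members and limma voom 31, and here too the shares of all genes called by these tools are not given. These comparisons share the graft libraries.

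**Figure D4:**
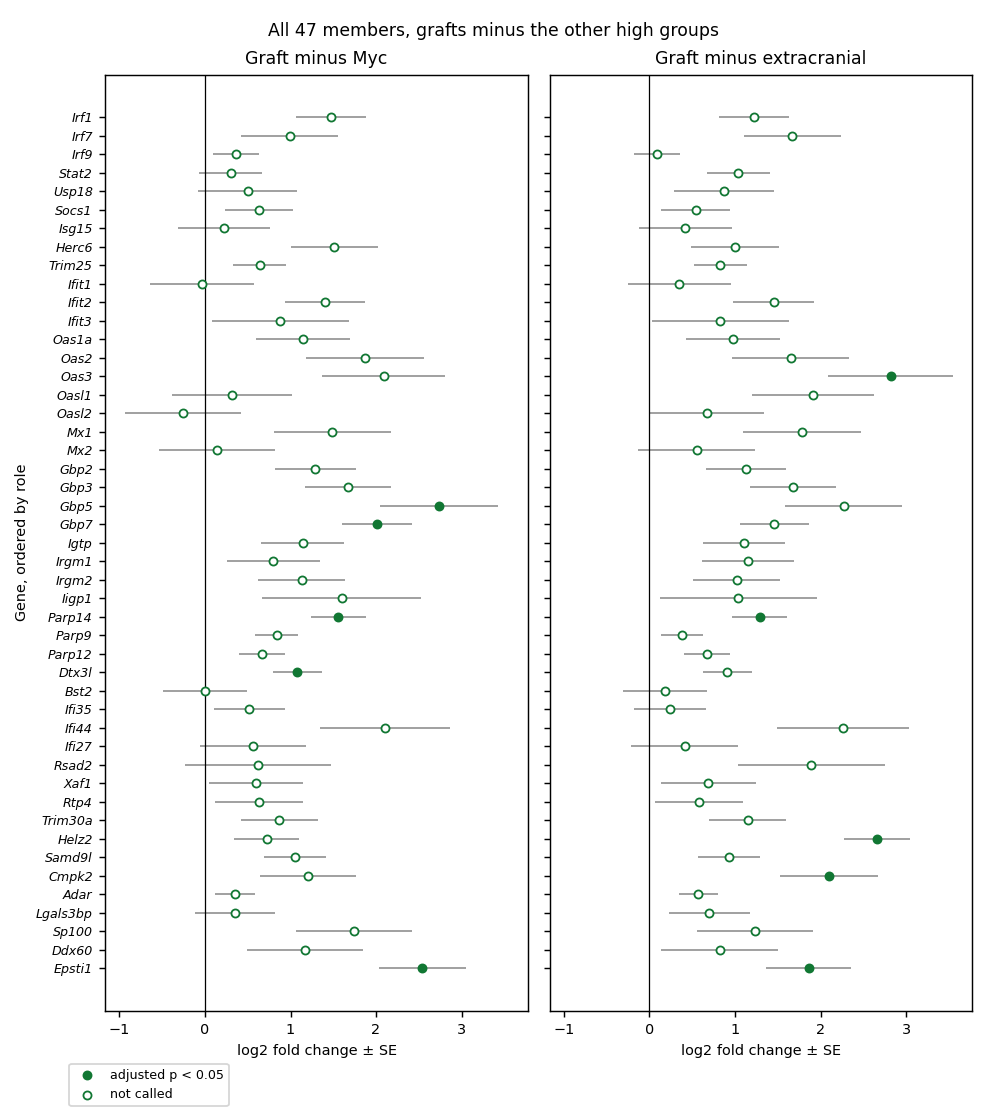
Log2 fold change with its SE of the 47 members, ordered by role, for grafts minus Myc tumors and grafts minus extracranial tumors, filled where the adjusted p was under 0.05. Nearly all points lie right of 0, and 5 are filled in each panel, with Parp14 and Epsti1 filled in both.

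Markers of some cell types moved with the members and others did not. Summed macrophage and monocyte markers (12 genes, all with reads in every group) were at 230 to 425 CPM in SHH tumors, 1315 to 4048 CPM in Myc tumors, 2082 to 7160 CPM in extracranial tumors, 4976 to 9142 CPM in grafts and 68.5 to 100 CPM in brain. Of these 12 genes, the count called higher against brain was 4 for SHH tumors, 12 for Myc tumors, 11 for extracranial tumors and 12 for grafts. Summed T and NK cell markers (12 genes) were at 1.25 to 2.89 CPM in SHH tumors, 2.66 to 52.2 CPM in Myc tumors, 10.7 to 56.9 CPM in extracranial tumors, 140 to 269 CPM in grafts and 0.603 to 1.12 CPM in brain. Each of these 12 genes had a read in at least 1 library of every group, and 8 had one in each of SHH tumors 1 and 2. The grafts stood above all other libraries in summed T and NK cell markers and in Ifng. They also did so in summed endothelium markers, at 427 to 475 CPM against at most 377 CPM elsewhere. Of the 12 T and NK cell genes, 3 were called higher in grafts than in Myc tumors and 1 than in extracranial tumors. Of all genes tested, 3.12% and 2.16% were called higher in these comparisons. Summed neutrophil markers (6 genes) were at 8.16 to 15.6 CPM in SHH tumors, 33.2 to 82.2 CPM in Myc tumors, 3.43 to 69.1 CPM in extracranial tumors, 78.2 to 97 CPM in grafts and 2.19 to 8.37 CPM in brain. Dendritic cell markers (8 genes) were at 15.5 to 34.6 CPM in SHH tumors, 14 to 52.3 CPM in Myc tumors, 24.2 to 191 CPM in extracranial tumors, 69 to 184 CPM in grafts and 27.5 to 34.4 CPM in brain. Single genes of this list differed more from brain than its sum. Called higher than brain were 1 of the 8 in SHH tumors, 3 in Myc tumors, 5 in extracranial tumors and 6 in grafts. Called lower was 1 in each of Myc tumors, extracranial tumors and grafts. The median log2 fold changes were 1.28, 2.68, 4.73 and 6.16 in the same order. Microglia markers did not follow the order of the members among the high groups, at 351 to 409 CPM in SHH tumors, 517 to 1126 CPM in Myc tumors, 648 to 1468 CPM in extracranial tumors, 628 to 778 CPM in grafts and 94.1 to 126 CPM in brain. Nor did fibroblast markers (6 genes), at 371 to 482 CPM in SHH tumors, 3992 to 15855 CPM in Myc tumors, 5230 to 10911 CPM in extracranial tumors, 2134 to 2458 CPM in grafts and 446 to 3926 CPM in brain. Of the 8 microglia genes, 5 were called higher than brain in each of Myc tumors, extracranial tumors and grafts. In the same groups 2, 1 and 1 of them were called lower. The part of these cell types in the members' levels was not tested. Myc tumor 2 had the fewest T and NK cell markers of its group (2.66 CPM). It was the lowest of its group for 20 of the 47 members and the highest for 10, with no count over all genes. It had no Ifng read, but with 20594147 total counts this cannot be told from the low level of the other Myc tumors.

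**Figure D5:**
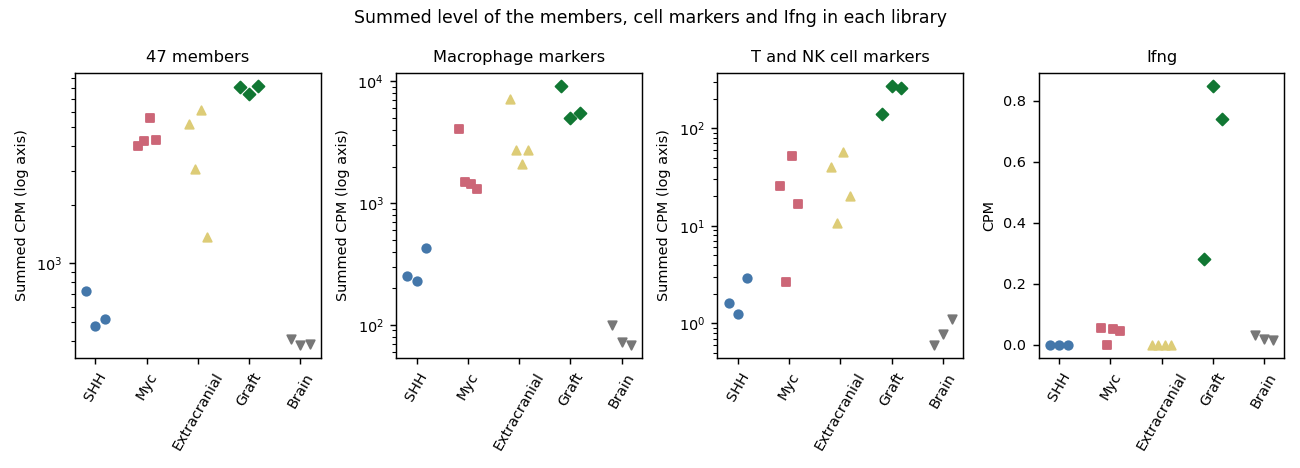
Summed CPM of the 47 members, of macrophage and monocyte markers and of T and NK cell markers on log axes, and CPM of Ifng on a linear axis, for each library by group. The grafts are highest in the members (7468 to 8149 CPM), in T and NK cell markers (140 to 269 CPM) and in Ifng (0.28 to 0.85 CPM), and Extracranial tumor 4 is at 1361 CPM in the members and 2752 CPM in the macrophage markers.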

How the data were processed

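Per the labels' protocols, total RNA was extracted with a miRNeasy kit and DNase treated, and TruSeq Stranded mRNA libraries were made. STAR 2.5.3a and the build mm10 come from the submitters' processing notes. Each library's deposited table lists whole-number counts by gene, not normalized. Which counter was used, whether it used strand and what it did with reads of several matches are not given in the sources used here. Symbols, positions and exon lengths came from GENCODE M21 (GRCm38): of 50600 gene IDs, 50376 matched after versions were dropped, and all 47 members matched.

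CPM were computed from TMM-scaled library sizes of the 21494 genes kept by filterByExpr (minimum count 10), which held 99.96% of the counts. All 17 libraries entered 1 edgeR 4.0.16 quasi-likelihood fit (R 4.3.3) with a mean per group and 11 contrasts, tested on simulated data first. The SE was derived from the fold change and F. Alternatives were DESeq2 1.42.0, limma 3.58.1 voom with quality weights, other scalings and filters, smaller fits and leaving out libraries. Libraries are separate tumors. For brain, labels call the replicates biological, and whether any shared an animal or a day was not stated. Replicate numbers did not pair samples. Members and lists were chosen with earlier results of these data known. Named were all 47 members, the listed ligands and receptors, and, per library, the class genes, the signal factors and the highest gene of other roles.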

Additional observations from a re-analysis of the deposited data

Results flagged for a closer look

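In groups of 4 libraries, the gap from the highest or lowest library to the next was compared with the range of its group, at Dixon's 95% critical value of 0.829. Of 94 combinations of member and group tested (47 members in the Myc and the extracranial tumors), 4 passed, all in Myc tumors and all with 1 high library. Chance alone gives about 1 in 20. Parp9 was at 111 CPM in Myc tumor 3, against 82 to 85.1 CPM in the other 3 (gap over range 0.892). Bst2 was at 479 CPM in Myc tumor 3, against 232 to 248 CPM in the others (0.933). Ifi27 was at 148 CPM in Myc tumor 4, against 14.8 to 36.2 CPM in the others (0.839). Rsad2 was at 205 CPM in Myc tumor 2, against 31.4 to 46.4 CPM in the others (0.913).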

How the results depend on the processing

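The 45 calls against brain in Myc tumors, extracranial tumors and grafts held under every setting tried, and 44 of the 45 for all tumors, the exception being Oas3. Of the 44 calls against SHH tumors, 41 in Myc tumors, 38 in extracranial tumors and 44 in grafts held under every setting, and no call turned its sign. Of 3619 values of a member in a comparison under the settings that changed the scaling, filter, tool, block or groups fitted, 3463 stayed on their side of the threshold, 30 lost a call and 126 gained one.

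The smaller counts moved, and the shares of all genes called under each setting are not given beside them. SHH tumors minus brain called 10 members higher, against 5 with no low-count filter, 22 by DESeq2 and 3 without Healthy brain 1 and SHH tumor 1, and 0 to 22 with 1 library left out. Grafts minus Myc tumors called 5, against 13 by DESeq2, 26 by limma voom, 17 in a fit of the compared groups only and 3 with a replicate block, and 0 to 15 with 1 library left out. Grafts minus extracranial tumors called 5, against 2 with no filter, 14 by DESeq2, 31 by limma voom, 1 in a fit of the compared groups only and 2 without Healthy brain 1 and SHH tumor 1, and 1 to 9 with 1 library left out. Members called lower were 0, but 1 by limma voom in all tumors minus brain (Adar), extracranial tumors minus brain (Adar) and extracranial minus SHH tumors (Cmpk2), 1 by DESeq2 in extracranial minus Myc tumors (Helz2), and 0 to 1 with 1 library left out in extracranial tumors minus brain (1 without Extracranial tumor 3) and in extracranial minus Myc tumors. The type I minus gamma difference of SHH tumors was -0.58 and -0.24 with other pseudocounts and -0.18 with wider classes. The cause was not tested.

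The replicate numbers carried no pairing: deviations of 31 same-numbered pairs correlated at -0.18 to 0.14, with 2 above 0.1. RLE scaling shifted the median gene by at most -0.10. Groups of 3 or 4 and shared reads among gene copies limit all values.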

Other observations

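Over the 17 libraries and all 21494 genes tested, the genes outside the 47 whose log2(CPM + 1) followed Ifit1 most closely were Rnf213 (Pearson r = 0.978), Ddx58 (0.976), Tor3a (0.968), Oas1b (0.968) and Trim21 (0.964). Those that followed Gbp2 were Rnf213 (0.991), Ddx58 (0.989), Uba7 (0.984), Oas1b (0.980) and Trim21 (0.980). Ddx58 encodes the RNA sensor RIG-I, Uba7 the enzyme that activates ISG15, and Oas1b is a near copy of Oas1a, with which it may share reads. Of the 50 genes most like each, 18 were members for Ifit1 and 20 for Gbp2. Ifit1 and Gbp2 themselves correlated at 0.979, so across these libraries the type I and gamma example genes had nearly one pattern. All points share the contrast between brain and SHH tumors on one side and the other tumors on the other, and the values are a description with no test.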
